A study of Mus musculus with 12 samples.

Results

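A set of 32 genes that make cholesterol, control its making or move it out of the cell was followed across 12 small pools of retinal cells. They were taken from a list of named genes and not ranked by measured values, but the list was chosen with earlier results of these data known. The genes were found by Ensembl identifier among the 54232 genes of the count table. The 32 genes were 20 enzymes of synthesis, 8 genes of sterol control, the lysosomal transport genes Npc1 and Npc2, and the efflux transporters Abca1 and Abcg1, against which synthesis was set. All 32 passed the filter on low counts and entered a test of 14985 genes. Hsd17b7 passed only through Olig1 day 14, where it is high, and Fdps and Lss only through Olig1 libraries.

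The pools came from eyes of adult, male, wild-type mice whose optic nerve, which carries the axons of the retinal ganglion cells, had been crushed. Eyes received AAV2, an adeno-associated virus, in the vitreous (1.5 µL), carrying Olig1, a helix-loop-helix factor of oligodendrocyte precursors, or the control protein GFP, which fluoresces green. There were 4 groups of 3 libraries: AAV-Olig1 at 7 days after the crush, AAV-GFP at 7 days, AAV-Olig1 at 14 days and AAV-GFP at 14 days. The crush, avertin anaesthesia, CD90.2 bead separation, picking of 10 to 20 cells with a Unipick device and a recorded virus time of 14 days were common to all groups, and no uncrushed group was analysed here. No source used here names the promoter that drove either transgene. Each library is a pool, so fewer cells of a type and less RNA per cell cannot be told apart, and the labels do not say whether pools came from separate animals. The p-values therefore reflect only how far these libraries scattered, and that scatter may be technical.

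Total counts ran from 12534515 to 27602459 per library, and levels are given in CPM, counts scaled to 1e6 per library. Where a gene had no count, its level could still be up to 0.109 CPM in the deepest and 0.239 CPM in the shallowest library, a limit for counting error only. Olig1 itself stood at 1029, 249 and 723 CPM in Olig1 day 7 libraries, against 0.320, 0 and 0.351 CPM in GFP day 7 libraries. At day 14 it stood at 56.4, 520 and 120 CPM in Olig1 libraries, against 0, 0.0362 and 0.251 CPM in GFP libraries. The labels call all the cells retinal ganglion cells, and the markers bear this out unevenly. The 12 ganglion cell markers summed to 2447 to 4732 CPM in Olig1 day 7 libraries and to 70.1 to 311 CPM in GFP day 7 libraries. At day 14 the sums were 163 to 3359 CPM in Olig1 libraries and 89.8 to 236 CPM in GFP libraries. Pou4f3 was at 0 in every group, and Slc17a6, Pou4f1 and Pou4f2 were at 0 in all GFP day 14 libraries. Markers of rods (12 genes) summed to 576 to 835 CPM in Olig1 day 7 libraries and 10839 to 57138 CPM in GFP day 7 libraries. GFP day 14 replicate 1 stood apart with the fewest genes detected, 10129, and 6 of the 32 genes at 0. GFP day 14 replicate 3 stood apart with 5 plasma and B cell markers summing to 132491 CPM, where the other 11 libraries had 0.0533 to 67.3 CPM.

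Cholesterol is built from acetyl-CoA through mevalonate, farnesyl diphosphate, squalene and lanosterol. When sterols in the endoplasmic reticulum are scarce, Scap escorts the SREBP precursors made from Srebf1 and Srebf2 to the Golgi, the proteases encoded by Mbtps1 and Mbtps2 release them, and they switch on the synthesis genes, while Insig proteins hold the complex back. Surplus sterol activates the nuclear receptors LXR, which raise Abca1 and Abcg1. In the nervous system cholesterol is made largely in place, and glia pass it on in particles carrying apolipoprotein E.

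Promoters of 5 genes are shown because they hold, or lack, the short motifs through which SREBP is known to act. The sequences are the 250 bases before the RefSeq start on GRCm38.p6, read 5′ to 3′ on the strand of the gene: Hmgcs1 at chr13:119690101-119690350 (plus strand), Msmo1 at chr8:64733579-64733828 (minus strand), Srebf2 at chr15:82147019-82147268 (plus strand), Mvk at chr5:114444019-114444268 (plus strand) and Abca1 at chr4:53159896-53160145 (minus strand). Capitals mark a match to TCACNCCA, a form of the sterol regulatory element, or to CCAAT, the box bound by the partner factor NF-Y, on either strand (CCAAT reads ATTGG on the other).
Hmgcs1: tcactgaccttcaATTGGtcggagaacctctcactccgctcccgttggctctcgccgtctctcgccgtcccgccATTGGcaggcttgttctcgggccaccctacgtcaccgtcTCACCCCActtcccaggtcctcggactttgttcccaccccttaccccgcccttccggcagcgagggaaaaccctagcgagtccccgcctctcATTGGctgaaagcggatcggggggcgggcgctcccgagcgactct
Msmo1: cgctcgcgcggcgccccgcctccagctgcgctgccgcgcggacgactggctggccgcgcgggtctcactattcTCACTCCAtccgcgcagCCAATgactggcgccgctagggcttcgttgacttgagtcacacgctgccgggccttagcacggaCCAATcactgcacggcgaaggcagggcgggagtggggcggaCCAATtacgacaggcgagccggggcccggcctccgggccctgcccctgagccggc
Srebf2: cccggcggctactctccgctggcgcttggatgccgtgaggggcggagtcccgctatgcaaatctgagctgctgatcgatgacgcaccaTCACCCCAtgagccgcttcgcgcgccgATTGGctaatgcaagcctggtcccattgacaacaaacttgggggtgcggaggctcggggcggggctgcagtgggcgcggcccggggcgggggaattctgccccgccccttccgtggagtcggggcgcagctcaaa
Mvk: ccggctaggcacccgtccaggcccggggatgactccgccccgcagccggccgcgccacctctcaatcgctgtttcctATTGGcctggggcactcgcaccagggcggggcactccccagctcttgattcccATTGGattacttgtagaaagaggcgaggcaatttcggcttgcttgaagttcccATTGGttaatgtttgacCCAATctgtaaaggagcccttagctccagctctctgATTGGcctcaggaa
Abca1: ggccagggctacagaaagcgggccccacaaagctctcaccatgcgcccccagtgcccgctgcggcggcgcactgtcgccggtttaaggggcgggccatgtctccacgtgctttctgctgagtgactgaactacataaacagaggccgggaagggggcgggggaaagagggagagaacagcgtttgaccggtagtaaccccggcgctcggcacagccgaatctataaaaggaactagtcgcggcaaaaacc

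RefSeq windows of 300 bases (250 before the start and 50 after it) were at hand for 26 of the 32 genes. TCACNCCA was found for 3 of these 26 genes (Hmgcs1, Msmo1 and Srebf2), and in 4.97% of all 27025 genes with a window. CCAAT was found for 16 of 17 synthesis genes, 4 of 7 control genes, Npc2 and not Abca1, against 41.1% of all genes. The motifs share letters where TCACNCCA is followed by AT, which was not so in these 3 genes. A match is only a description, and a missing match says only that these letters are not in the window. The full 300 bases for Mvk held 5 CCAAT boxes, the Hmgcs1 window 4, the Msmo1 window 3 and the Srebf2 window 1.

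Enzyme levels differed widely. To compare genes roughly, levels were set per kilobase of exon, with all annotated exons of a gene joined. A gene whose annotated exons are not all used reads too low by this measure. The median over the 12 libraries was highest for Pmvk (29.6 CPM per kilobase), followed by Fdft1 (21.6), Ebp (20.3), Msmo1 (19.8), Npc2 (18.1) and Hmgcs1 (15.3). Neighbours in this order had overlapping ranges and did not differ beyond their spread: Fdft1, for example, ran from 9.25 to 107 and Ebp from 0.0339 to 249 CPM per kilobase. Abcg1 (1.80) and Abca1 (1.53) lay in the lower part of the order at ranks 20 and 21, and Lss (0.257), Dhcr7 (0.247) and Hsd17b7 (0, absent from 8 libraries) closed it.

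**Figure D1:**
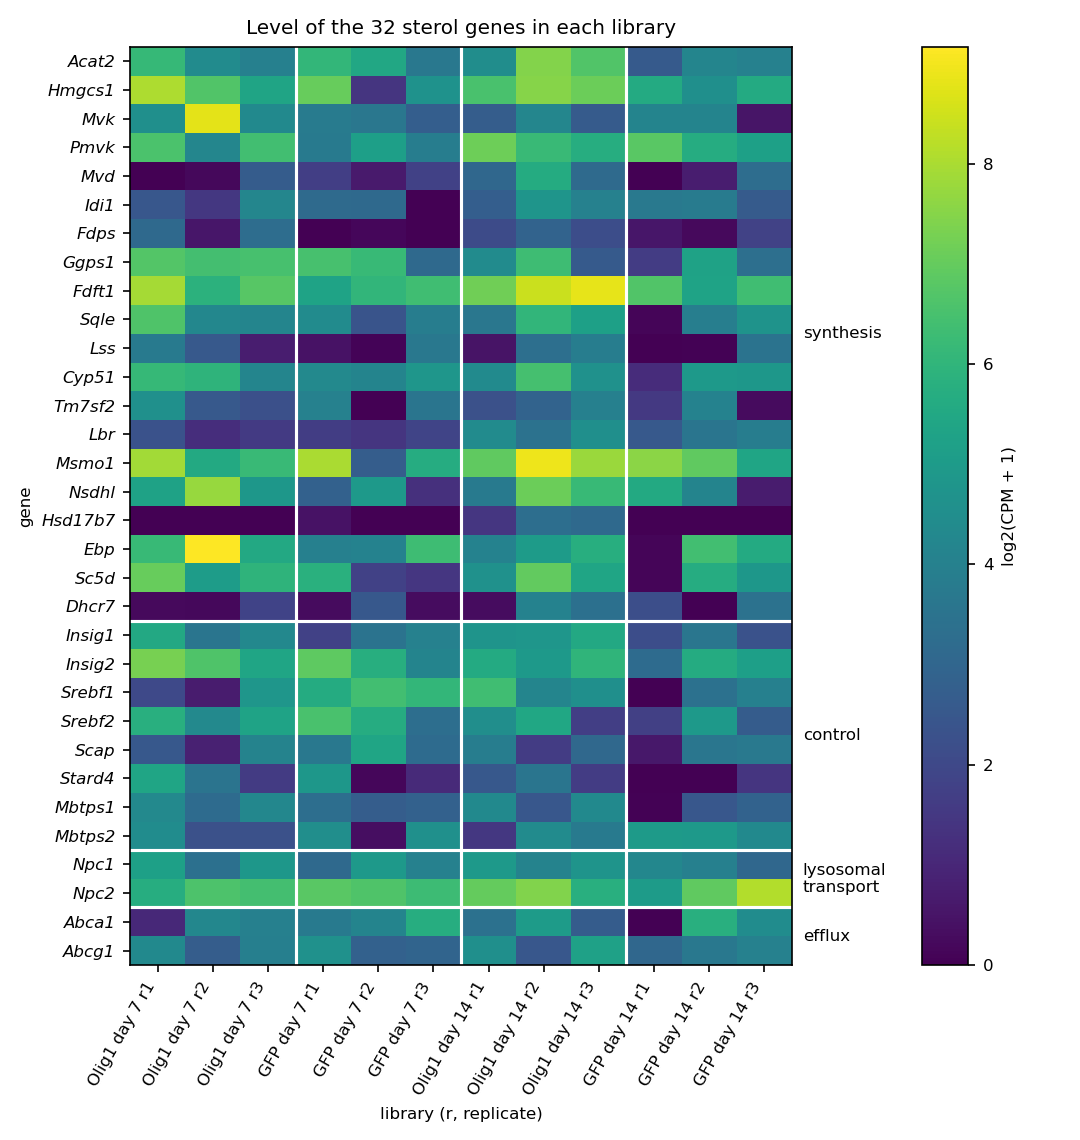
Levels of the 32 genes (rows, by role) in the 12 libraries (columns, by group, 3 replicates each), as log2(CPM + 1) by colour. Hsd17b7 is dark outside Olig1 day 14 libraries, Mvk is brightest in Olig1 day 7 replicate 2 (439 CPM), and GFP day 14 replicate 1 has 6 dark genes at 0.

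None of the 32 genes was called in either Olig1 comparison, yet the synthesis enzymes as a group stood on the higher side. At day 7, 0 of 32 genes had a Benjamini-Hochberg adjusted p under 0.05 (edgeR quasi-likelihood test), where 0.227% of all genes did. For day 14 this was 0 of 32 where 0.04% of all genes did, and over the mean of both days 0 of 32 where 0.654% did. At an unadjusted edgeR p under 0.05, 4 of 32 were higher with Olig1 at day 7, where 8.95% of all genes were. The counts were 3 of 32 at day 14 (5.57%) and 6 of 32 over both days (8.5%). Lower with Olig1 were 0 of 32 in each comparison, where in turn 749, 728 and 956 of all 14985 genes were. The 3 at day 14 were Acat2, Fdft1 and Hsd17b7, and Fdps was among the 4 and the 6. Hsd17b7 and Fdps passed the filter only through Olig1 libraries, where they are high, so their places in these counts support nothing. DESeq2, which called more of the table, called 1 of the 32 at day 7 (Fdps; 6.37% of all genes), 0 at day 14 (4.96%) and 3 over both days (Fdps, Fdft1 and Insig1; 7.69%). Nothing is read from the calls of Fdps. Voom called 1 at day 14 (Hsd17b7; 0.367% of all genes), a gene that passed the filter only through its Olig1 day 14 counts, so that nothing is read from this call.

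Of the 20 synthesis genes, 17 had a log2 fold change above 0 at day 7, 18 at day 14 and 19 over both days, where 49.0%, 52.6% and 51.9% of all genes did. These counts include Fdps and Lss throughout and Hsd17b7 at day 14, genes that passed the filter only through Olig1 libraries. The median log2 fold change of the 20 synthesis genes, Olig1 over GFP, was 1.07 at day 7, 1.16 at day 14 and 1.35 over both days, beside medians over all genes of -0.03, 0.09 and 0.06. Setting the genes with near-zero counts to a ratio or bound left the medians of the single days at 1.07 and 1.16. That step changed 2 genes at day 7 and 1 at day 14. Each stayed on the same side of the median, so the medians could not move and nothing is read from this. The median at day 14 leaned on single libraries: it was 0.75 without GFP day 14 replicate 1 and 0.62 without Olig1 day 14 replicate 2, where 15 of 20 stayed above 0. Without GFP day 14 replicate 3, the library high in plasma and B cell markers, it was 1.53, with 18 of 20 above 0; the part of these markers in the result was not tested. Beside this, ganglion cell markers had log2 fold changes above 0 in 10 of 10 tested at day 7 and 9 of 10 at day 14. Their day 14 sums were 175, 3359 and 163 CPM with Olig1 and 236, 144 and 89.8 CPM with GFP. Only Olig1 replicate 2 lay above the GFP libraries there. Rod markers were lower with Olig1 in 12 of 12 at each day, with 2 called lower at day 7. The day 14 rod sums overlapped, at 897 to 11199 CPM with Olig1 and 3568 to 49084 CPM with GFP. Amacrine cell markers were above 0 in 7 of 7 tested at day 7 and 6 of 7 at day 14, with 1 (Gad1) called higher at each day. They summed to 834 to 1857 CPM in Olig1 day 7 libraries and 80.9 to 135 CPM in GFP day 7 libraries, and to 205 to 865 CPM in Olig1 day 14 libraries and 159 to 257 CPM in GFP day 14 libraries. Cone markers were above 0 in 0 of 8 at each day, with sums of 20.6 to 109 CPM in Olig1 day 7 libraries and 1404 to 1941 CPM in GFP day 7 libraries. Bipolar cell markers were above 0 in 1 of 8 at day 7 and 0 of 8 at day 14, with 1 (Trpm1) called lower at each day. The part of these markers in the result was not tested.

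**Figure D2:**
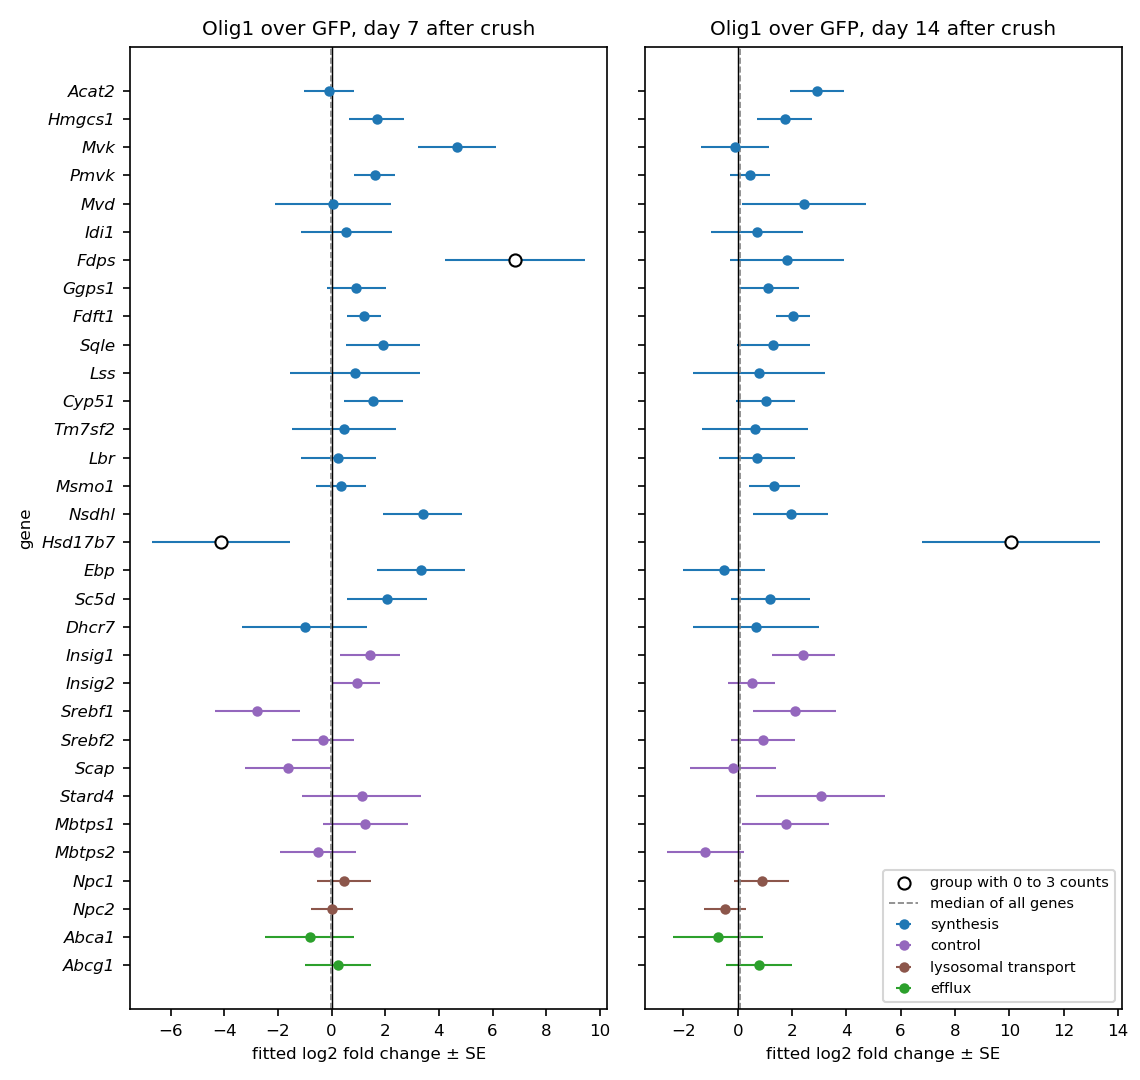
Fitted log2 fold change of Olig1 over GFP with its standard error for each gene at day 7 (left) and day 14 (right), coloured by role, from 3 libraries per group. Open circles mark genes with 0 to 3 counts in a group, whose fitted value is unreliable, and the dashed line is the median of all genes. Most synthesis genes lie right of 0 while Abca1 and Abcg1 lie on either side of it.

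In the mevalonate branch, Hmgcs1 (ENSMUSG00000093930, chromosome 13, 119690379 to 119708260, GRCm38), which makes HMG-CoA, stood at 261, 103 and 40.3 CPM in Olig1 day 7 libraries and 129, 1.64 and 24.4 CPM in GFP day 7 libraries. Its day 14 values were 92.6, 178 and 139 CPM in Olig1 libraries and 47.8, 22.7 and 47.5 CPM in GFP libraries. The day 7 groups overlapped and the day 14 groups did not. The log2 fold change was 1.70 ± 0.73 over both days (SE; edgeR adjusted p = 0.280).

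Acat2, the cytosolic thiolase at the head of the pathway, stood at 21.4, 174 and 102 CPM in Olig1 day 14 libraries and 5.06, 17.0 and 15.2 CPM in GFP day 14 libraries. Those groups did not overlap, whereas the day 7 groups did, at 68.8, 20.5 and 15.0 CPM with Olig1 and 66.4, 43.7 and 11.8 CPM with GFP. Its log2 fold change was 2.91 ± 0.99 at day 14 (adjusted p = 0.438) and -0.10 ± 0.92 at day 7. Acat2 shares 1477 bases at 97.7% identity with Acat3, so reads of the pair may be split.

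Mvk, mevalonate kinase, had the smallest day 7 p of the 32 genes, but its value rested on 1 library. It stood at 22.6, 439 and 19.4 CPM in Olig1 day 7 libraries and 13.1, 11.5 and 5.62 CPM in GFP day 7 libraries. The groups did not overlap. The log2 fold change was 4.68 ± 1.45 (adjusted p = 0.228), and 0.93 without Olig1 day 7 replicate 2. At day 14 Mvk stood at 5.48, 17.3 and 5.27 CPM with Olig1 and 16.4, 16.6 and 0.418 CPM with GFP, with a log2 fold change of -0.09 ± 1.24. The difference between the days was -4.77 ± 1.85 (interaction adjusted p = 0.412), and -1.04 without that same library.

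Pmvk, phosphomevalonate kinase, stood at 94.2, 17.5 and 83.5 CPM in Olig1 day 7 libraries and 12.8, 34.9 and 13.6 CPM in GFP day 7 libraries. Olig1 replicate 2 lay among the GFP libraries, and the log2 fold change was 1.61 ± 0.75 (adjusted p = 0.358). At day 14 the values were 141, 74.1 and 51.2 CPM with Olig1 and 113, 50.3 and 36.0 CPM with GFP, which overlapped. Mvd, which decarboxylates mevalonate diphosphate, ran from 0 to 48.6 CPM over the 12 libraries.

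Among the isoprenoid enzymes, Fdps, farnesyl diphosphate synthase, was low throughout. It stood at 7.77, 0.479 and 8.72 CPM in Olig1 day 7 libraries and at 0, 0.109 and 0 CPM in GFP day 7 libraries, which did not overlap. The pooled counts were 278 with Olig1 and 2 with GFP, a ratio of 165 with a 95% counting interval of 45.1 to 1365 (edgeR adjusted p = 0.282). That interval covers counting error only, while the Olig1 day 7 libraries held 143, 6 and 129 counts. Fdps passed the filter only through Olig1 libraries, where it is high, so nothing is read from the ratio or from its separation at either day. At day 14 Fdps stood at 3.30, 6.48 and 3.51 CPM with Olig1 and 0.470, 0.181 and 2.46 CPM with GFP, again without overlap (log2 fold change 1.82 ± 2.09). These counts are uncertain, since the pseudogene Gm3571 matches Fdps over 1062 bases at 98.9% identity and held 4087 counts in all, against 649 for Fdps. Gm3571 stood at 28.5, 6.70 and 11.8 CPM in Olig1 day 7 libraries and 3.25, 2.57 and 3.16 CPM in GFP day 7 libraries. Idi1, the isopentenyl diphosphate isomerase, and Ggps1, which opens the geranylgeranyl branch, had log2 fold changes of 0.56 ± 1.70 and 0.93 ± 1.11 at day 7.

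On the way to lanosterol, Fdft1 (ENSMUSG00000021273, chromosome 14, 63145150 to 63179578), squalene synthase and the first enzyme committed to sterols, had the smallest adjusted p of the 32 genes. It stood at 242, 58.1 and 109 CPM in Olig1 day 7 libraries and 39.1, 63.8 and 80.4 CPM in GFP day 7 libraries, where Olig1 replicate 2 lay inside the GFP range. On day 14 it was found at 143, 344 and 452 CPM with Olig1 and 102, 39.4 and 81.1 CPM with GFP, without overlap. Its log2 fold change was 1.21 ± 0.62 at day 7, 2.03 ± 0.64 at day 14 (adjusted p = 0.438) and 1.62 ± 0.44 over both days (adjusted p = 0.107). Its adjusted p over both days was 0.0129 at its lowest, by DESeq2, and 0.242 at its highest over 19 alternatives. Fdft1 shares 774 exon bases with Ctsb on the opposite strand, which held 303318 counts, and the strand setting of the counting is not given in the sources used here.

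Sqle, squalene epoxidase, stood at 98.3, 18.0 and 17.0 CPM in Olig1 day 7 libraries and 20.5, 4.16 and 13.9 CPM in GFP day 7 libraries. At day 14 it stood at 11.5, 65.3 and 36.3 CPM with Olig1 and 0.0784, 14.1 and 25.3 CPM with GFP. The groups overlapped at both days, and the log2 fold change over both days was 1.62 ± 0.97 (adjusted p = 0.463). Lss, which closes the ring to lanosterol, was below 14 CPM in every library.

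**Figure D3:**
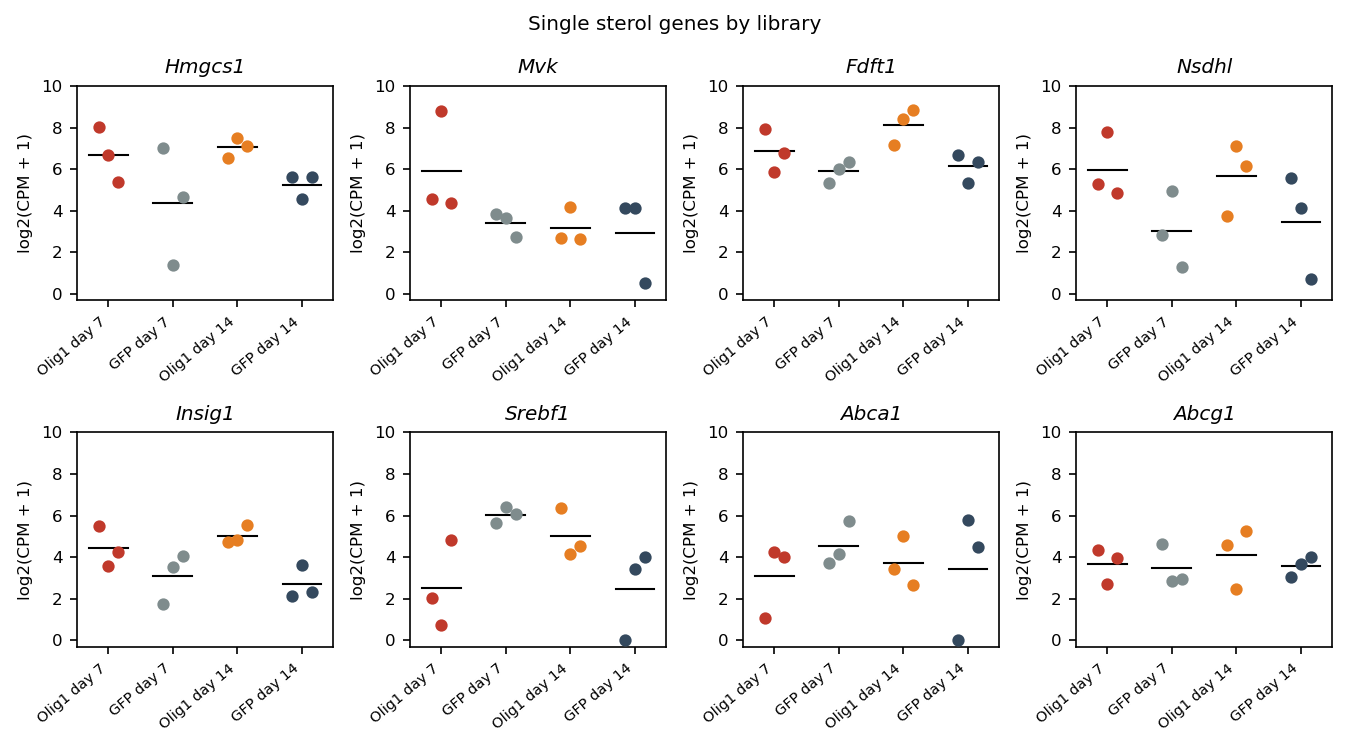
Levels of 8 of the 32 genes as log2(CPM + 1) in each library (points) with the group mean (bar), for Olig1 day 7, GFP day 7, Olig1 day 14 and GFP day 14. Fdft1, Hmgcs1 and Insig1 separate the viruses at day 14, Srebf1 lies lower with Olig1 at day 7 and higher at day 14, and Abca1 and Abcg1 overlap at both days.

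Of the 9 enzymes between lanosterol and cholesterol, 7 had a log2 fold change above 0 at day 7 and 8 at day 14, with Hsd17b7 among the 8. Nsdhl, a sterol dehydrogenase, stood at 38.0, 217 and 27.7 CPM in Olig1 day 7 libraries and 6.13, 29.6 and 1.40 CPM in GFP day 7 libraries. The highest GFP library lay just above the lowest Olig1 library, and the log2 fold change was 3.40 ± 1.47 (adjusted p = 0.323). At day 14 Nsdhl stood at 12.3, 136 and 70.6 CPM with Olig1 and 46.9, 16.7 and 0.626 CPM with GFP, which overlapped. Over both days the log2 fold change was 2.68 ± 1.01 (adjusted p = 0.213).

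Hsd17b7, a keto reductase of the same step series, had counts in 4 of 12 libraries, 3 of them Olig1 day 14. It stood at 1.74, 8.96 and 7.87 CPM in Olig1 day 14 libraries, with 404 counts, against 0 CPM in all 3 GFP day 14 libraries. It was at 0 CPM in all 3 Olig1 day 7 libraries, against 0.373, 0 and 0 CPM in GFP day 7 libraries. At day 14 it was at least 162-fold higher with Olig1, taking 3 counts over the group as the floor (edgeR adjusted p = 0.438). Within the Olig1 virus it was at least 96.2-fold higher at day 14 than at day 7 (adjusted p = 0.371). Both bounds cover counting error only, not the scatter between libraries. Hsd17b7 passed the filter only through Olig1 day 14, where it is high, so nothing is read from these folds or their p.

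The other 7 late enzymes overlapped between the viruses at both days. Ebp, a sterol isomerase, reached 575 CPM in Olig1 day 7 replicate 2 beside 70.8 and 45.7 CPM in the other Olig1 day 7 libraries and 14.8, 15.8 and 79.5 CPM in GFP day 7 libraries. Sc5d, a sterol desaturase, had a log2 fold change of 2.06 ± 1.48 at day 7. Cyp51, the lanosterol demethylase, had 1.56 ± 1.09, and Msmo1, a methylsterol oxidase, 0.36 ± 0.93. The sterol reductases Tm7sf2 and Lbr and the final reductase Dhcr7 had log2 fold changes at day 7 of 0.47 ± 1.94, 0.24 ± 1.40 and -1.01 ± 2.32.

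Among the 8 control genes, 4 had a log2 fold change above 0 at day 7 and 6 at day 14, with medians of 0.31 and 1.35. Insig1, which holds Scap back and is itself an SREBP target, stood at 44.8, 10.9 and 18.2 CPM in Olig1 day 7 libraries and 2.40, 10.3 and 15.4 CPM in GFP day 7 libraries. Its day 14 values were 25.8, 27.5 and 45.7 CPM with Olig1 and 3.45, 11.2 and 4.01 CPM with GFP. Only the day 14 groups were apart. The log2 fold change was 1.44 ± 1.12 at day 7, 2.41 ± 1.16 at day 14 (adjusted p = 0.491) and 1.92 ± 0.80 over both days (adjusted p = 0.269).

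Srebf1 (ENSMUSG00000020538, chromosome 11, 60199089 to 60222581), whose protein favours fatty acid genes, was ordered oppositely at the 2 days. It stood at 3.10, 0.638 and 27.4 CPM in Olig1 day 7 libraries and 49.0, 83.1 and 66.8 CPM in GFP day 7 libraries. On day 14 it was found at 81.7, 16.9 and 22.6 CPM with Olig1 and 0, 9.67 and 14.9 CPM with GFP. All Olig1 libraries lay below all GFP libraries at day 7 and above them at day 14. Its log2 fold change was -2.77 ± 1.58 at day 7 (adjusted p = 0.458) and 2.09 ± 1.54 at day 14 (adjusted p = 0.819). The difference between the days was 4.87 ± 2.21 (interaction adjusted p = 0.486).

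Srebf2, whose protein favours cholesterol genes, stood at 54.4, 19.1 and 38.7 CPM in Olig1 day 7 libraries and 90.7, 50.7 and 8.84 CPM in GFP day 7 libraries. At day 14 it stood at 22.2, 43.2 and 2.29 CPM with Olig1 and 2.35, 29.2 and 5.34 CPM with GFP. The groups overlapped at both days, and the log2 fold change was -0.32 ± 1.16 at day 7 and 0.93 ± 1.17 at day 14 (adjusted p = 0.958 and 0.981). Scap, the escort, had -1.62 ± 1.61 at day 7, and its proteases Mbtps1 and Mbtps2 had 1.26 ± 1.58 and -0.51 ± 1.41. Insig2 had 0.93 ± 0.86 at day 7, and Stard4, a sterol carrier, had 3.05 ± 2.38 at day 14, where its groups did not overlap at under 11 CPM.

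The groups did not overlap for some of the genes. At day 7, 2 of 32 (Mvk and Fdps) lay wholly higher with Olig1, where 9.4% of all genes did, and 1 (Srebf1) wholly lower, where 9.01% did. At day 14, 8 of 32 lay wholly higher, where 7.78% of all genes did, and 0 wholly lower, where 4.12% did. The 8 were Acat2, Hmgcs1, Fdps, Fdft1, Hsd17b7, Insig1, Srebf1 and Stard4. Hsd17b7 and Fdps passed the filter only through Olig1 libraries, where they are high, so their places in these counts support nothing.

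The efflux transporters gave no such lean. Abca1 (ENSMUSG00000015243, chromosome 4, 53030787 to 53159895), which loads cholesterol onto lipid-poor apolipoprotein, stood at 1.09, 17.9 and 15.0 CPM in Olig1 day 7 libraries and 12.3, 16.7 and 51.8 CPM in GFP day 7 libraries. Its day 14 values were 9.64, 31.8 and 5.37 CPM with Olig1 and 0, 54.7 and 21.2 CPM with GFP. The groups overlapped at both days, and the log2 fold change was -0.81 ± 1.67 at day 7 (adjusted p = 0.908) and -0.72 ± 1.66 at day 14. Without GFP day 14 replicate 2 the day 14 value was 0.20.

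Abcg1, which passes cholesterol to lipidated particles, stood at 19.5, 5.50 and 14.6 CPM in Olig1 day 7 libraries and 23.7, 6.13 and 6.85 CPM in GFP day 7 libraries. On day 14 it was found at 22.8, 4.56 and 37.1 CPM with Olig1 and 7.33, 11.7 and 15.2 CPM with GFP. These groups overlapped too. The log2 fold change was 0.23 ± 1.22 at day 7 (adjusted p = 0.973) and 0.79 ± 1.23 at day 14, and at day 7 it turned below 0 when any of 3 single libraries was left out, to -0.06 at the lowest.

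The lysosomal genes Npc1 and Npc2, which release cholesterol from lysosomes, overlapped as well. Npc1 stood at 36.0, 9.41 and 28.0 CPM in Olig1 day 7 libraries and 7.67, 29.6 and 15.4 CPM in GFP day 7 libraries. At day 14 it stood at 30.2, 16.1 and 25.7 CPM with Olig1 and 18.0, 14.9 and 7.31 CPM with GFP (log2 fold change 0.88 ± 1.02). Npc2 stood at 51.9, 97.5 and 85.2 CPM in Olig1 day 7 libraries and 111, 99.8 and 77.4 CPM in GFP day 7 libraries, a log2 fold change of 0.02 ± 0.78. Its day 14 values were 128, 174 and 53.5 CPM with Olig1 and 31.9, 120 and 272 CPM with GFP, a log2 fold change of -0.46 ± 0.78, and 0.77 without GFP day 14 replicate 3.

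Synthesis was then set against efflux within each library. The 20 synthesis genes summed to 1486, 1687 and 639 CPM in Olig1 day 7 libraries and 752, 317 and 345 CPM in GFP day 7 libraries. At day 14 they summed to 670, 1936 and 1298 CPM with Olig1 and 545, 542 and 411 CPM with GFP. The sums overlapped at day 7 and not at day 14. Abca1 and Abcg1 together came to 20.6, 23.4 and 29.6 CPM in Olig1 day 7 libraries and 36.0, 22.9 and 58.6 CPM in GFP day 7 libraries. They came to 32.5, 36.4 and 42.4 CPM with Olig1 at day 14 and 7.33, 66.4 and 36.4 CPM with GFP, overlapping at both days.

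As a balance, the mean log2(CPM + 1) of the synthesis genes minus that of Abca1 and Abcg1 was taken per library. It averaged 0.94 ± 1.03 in Olig1 day 7 libraries and -0.86 ± 0.47 in GFP day 7 libraries, and 0.84 ± 0.98 in Olig1 day 14 libraries and -0.23 ± 1.16 in GFP day 14 libraries (SD, n = 3 each). The difference, Olig1 minus GFP, was 1.80 at day 7, where the groups did not overlap, and 1.07 at day 14, where GFP replicate 1 reached 1.10, with Abca1 at 0 and Abcg1 at 7.33 CPM. Leaving out each library in turn gave 1.23 to 2.24 at day 7 and 0.59 to 1.74 at day 14. No test was made of this score. The fitted medians went the same way, at 1.07 for synthesis beside -0.29 for efflux at day 7 and 1.16 beside 0.03 at day 14. There were 2 efflux genes, and their standard errors at day 7, 1.67 for Abca1 and 1.22 for Abcg1, exceeded the synthesis median.

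**Figure D4:**
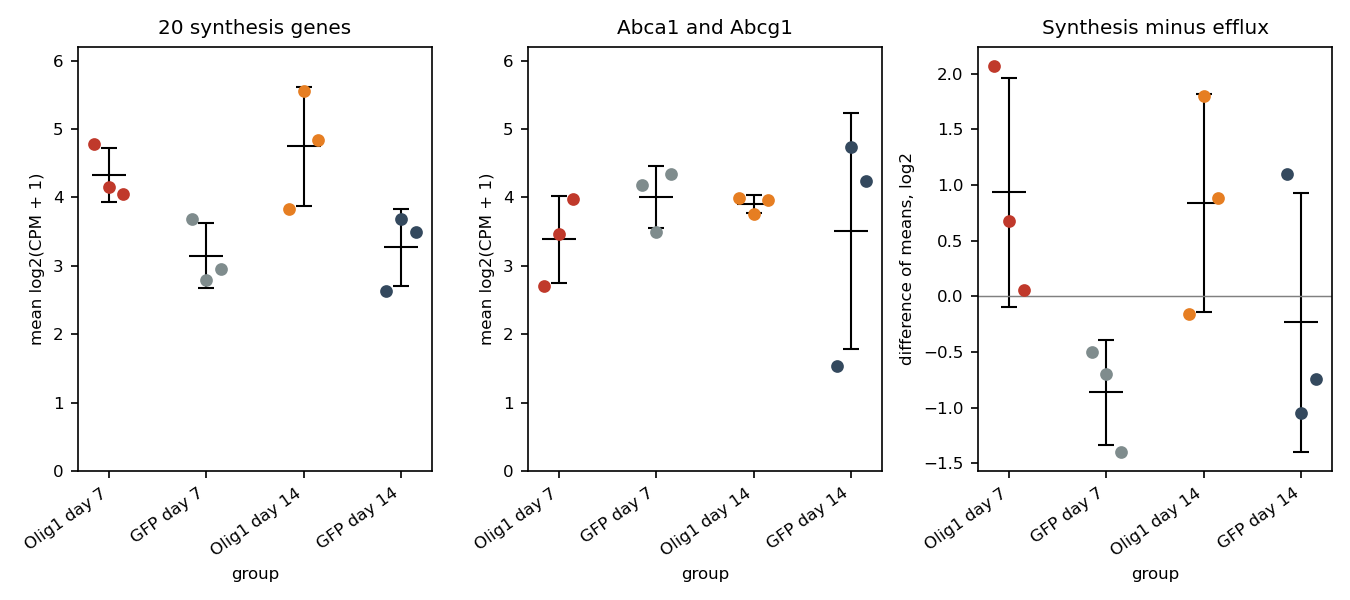
Mean log2(CPM + 1) of the 20 synthesis genes (left), of Abca1 and Abcg1 (middle) and their difference (right) in each library (points), with group mean and SD (bars, n = 3). In the balance, all 3 Olig1 day 7 libraries lie above all 3 GFP day 7 libraries. At day 7 the lowest Olig1 value is 0.06 and the highest GFP value -0.50, while the day 14 groups overlap.

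Day 14 was set against day 7 within each virus. With Olig1, 0 of 32 genes were called, where 0.0334% of all genes were, and with GFP 0 of 32, where 0.0% were. DESeq2 called 1 gene with Olig1 (Lbr; 4.18% of all genes) and 0 with GFP (4.31%), and voom called 1 with Olig1 (Hsd17b7; 2.09%), again the gene that passed the filter only through Olig1 day 14. At an unadjusted p under 0.05 there were 3 of 32 genes with Olig1 (11.8% of all genes): Fdft1 higher at day 14 by 1.42 ± 0.63, Hsd17b7 as given above, and Mvk lower by -4.50 ± 1.44 (adjusted p = 0.371), or -0.88 without Olig1 day 7 replicate 2. With GFP there was 1 of 32 (10.3% of all genes), Pmvk, at 1.86 ± 0.76 (adjusted p = 0.442). Of the 20 synthesis genes, 14 were above 0 with Olig1 (49.5% of all genes) and 16 with GFP (45.5%), with medians of 0.29 and 0.61. The control genes had medians of 0.27 with Olig1 and -0.82 with GFP. With Olig1, 3 of 32 genes lay wholly higher at day 14 than at day 7 (Mvd, Lbr and Hsd17b7; 5.55% of all genes) and 2 wholly lower (Mvk and Ggps1; 10.6%). With GFP, 3 lay wholly higher (Pmvk, Fdps and Lbr; 3.96%) and 1 wholly lower (Srebf1; 10.5%). Whether the Olig1 difference itself shifted between the days was tested as an interaction, with 0 of 32 genes called where 0.0% of all genes were, and 4 of 32 at an unadjusted p under 0.05 (9.9%): Hsd17b7, Mvk, Acat2 (3.02 ± 1.33) and Srebf1. Hsd17b7 passed the filter only through Olig1 day 14, so nothing is read from its place in these counts.

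Genes around the pathway were read from wider lists, in which 0 genes were called in any of these comparisons. Of 11 genes of LXR and apolipoproteins, 2 had a log2 fold change above 0 at day 7 and 7 at day 14, with medians of -2.45 and 0.63. Pltp, the phospholipid transfer protein, carried its day 14 counts in 1 library, with 44.0, 0.326 and 0.160 CPM with Olig1 and 0 CPM in all 3 GFP libraries. Of 6 tested genes of sterol uptake, 1 was above 0 at day 7 and 4 at day 14, with medians of -0.90 and 0.44. Among 6 of sterol storage and oxidation the counts were 2 and 3, with medians of -3.07 and -0.13. For sterol movement they were 5 and 3 of 6, with medians of 0.82 and 0.01.

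Of 11 genes of fatty acid synthesis, 3 were above 0 at day 7 and 9 at day 14, with medians of -0.28 and 1.01. Scd1, a stearoyl-CoA desaturase and SREBP target, stood at 21.5, 3.35 and 2.64 CPM in Olig1 day 7 libraries and 0.213, 0.164 and 0 CPM in GFP day 7 libraries. At day 14 it stood at 5.09, 36.1 and 1.22 CPM with Olig1 and 0.0784, 0 and 0 CPM with GFP, without overlap at either day (edgeR adjusted p = 0.0760 over both days). Scd1 held 7 counts over the GFP day 7 libraries and 2 over the GFP day 14 libraries. It passed the filter only through Olig1 libraries, where it is high, so nothing is read from the separation or the p. Scd2, its relative, had a log2 fold change of -1.81 ± 0.71 at day 7 (adjusted p = 0.286). The summed Müller glia markers, a glial type of the retina, came to 6428 to 11643 CPM in Olig1 day 7 libraries and 24880 to 53272 CPM in GFP day 7 libraries, with 10 of 10 markers detected. At day 14 they came to 16205 to 31933 CPM with Olig1 and 15638 to 28909 CPM with GFP, and the part of these cells in the sterol values was not tested. Microglia and macrophage markers (12 genes) summed to 25.5 to 1357 CPM in Olig1 day 7 libraries, 24.5 to 2826 CPM in GFP day 7 libraries, 3.75 to 12.7 CPM in Olig1 day 14 libraries and 25.2 to 9412 CPM in GFP day 14 libraries. Leaving out the 4 libraries over 1000 CPM of these markers was a choice made after seeing the data. It leaves 1 GFP day 14 library, replicate 1, which had the fewest genes detected and 6 of the 32 genes at 0. The synthesis median was then 1.39 at day 7 and 2.89 at day 14, beside a median over all genes of 1.53 at day 14. Nothing is read from the calls of this fit.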

How the data were processed

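Per the labels' protocols, cDNA of 12 picked pools was amplified in 20 PCR cycles (SMART-Seq HT). The authors deposited raw counts of reads per Ensembl gene, made with FastQC, HISAT2 and HTSeq on mm10 per the submitters' processing notes. No version, annotation release or strand setting is named in the sources used here. Symbols, coordinates and exon lengths came from GENCODE M21. The per-sample files of 4 libraries were cut short, and the series table was used, in which 0 shared genes differed.

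Counts were tested with edgeR 4.0.16 in R 4.3.3 (quasi-likelihood, robust, TMM, filterByExpr by group, minimum count 10), 1 fit of 12 libraries and 4 groups, 6 contrasts, Benjamini-Hochberg adjusted over 14985 genes and called at 0.05. The common biological coefficient of variation was 1.351. The fit was tested on simulated counts with known changes for Olig1 over GFP at day 7. It called 0 of 49 genes changed by 2 on the log2 scale, 3 of 49 changed by 4, 7 of 47 by 6 and 12 of 46 by 8. None of the 14350 unchanged genes was called. A gene that is not called may therefore still have changed by much. Alternatives were DESeq2 1.42.0, limma 3.58.1 voom, other scaling and filters, a replicate block and leaving out libraries. Promoter letters are from RefSeq, and paralogs were sought with blastn 2.17.0 (at least 500 bases, 95% identity).

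The members and lists were chosen with earlier results of these data known. Per-library values and tests are given for members with an unadjusted p under 0.05 in any contrast, for the transport and efflux genes, and for Hmgcs1, Sqle, Insig1, Srebf1 and Srebf2, and the rest by range and examples. In the wider lists, genes with such a p could be named, up to 4 a list by smallest p, and those shown are a part of them, since some are not reported here. The labels speak of batches without assigning libraries to them, so batch could not enter a test.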

Additional observations from a re-analysis of the deposited data

Results flagged for a closer look

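Srebf1 was singled out because its 2 virus groups were ordered oppositely at the 2 days. In Olig1 day 7 libraries it stood at 3.10, 0.638 and 27.4 CPM, below the 49.0, 83.1 and 66.8 CPM of GFP day 7 libraries. In Olig1 day 14 libraries it stood at 81.7, 16.9 and 22.6 CPM, above the 0, 9.67 and 14.9 CPM of GFP day 14 libraries. The difference between the days, day 14 minus day 7 of Olig1 over GFP, was 4.87 on the log2 scale, and it missed the threshold in the edgeR interaction test (adjusted p = 0.486).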

How the results depend on the processing

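The count of called genes among the 32 stayed at 0 under the other scaling, both other filters, the replicate block and each left-out library (0 to 0 in all 6 comparisons). The exceptions were as follows. DESeq2 called 1 (Fdps) at day 7, 3 (Fdps among them) over both days and 1 (Lbr) for day 14 over day 7 with Olig1. Voom called 1 (Hsd17b7) at day 14 and 1 (Hsd17b7) for day 14 over day 7 with Olig1. Hsd17b7 passed the filter only through Olig1 day 14, and Fdps only through Olig1 libraries. Without the 4 libraries high in microglia and macrophage markers, an alternative chosen after seeing the data, 2 were called at day 14 (Ebp and Srebf1), 3 over both days (Sqle, Ebp and Sc5d), 1 in the interaction and 1 in GFP day 14 over day 7 (Srebf1 in each). The cause was not tested, but GFP day 14 is then a single library, assumed to vary like the other groups. In each of these comparisons that fit also called more of all genes than the fit of 12 libraries. Nothing is therefore read from its calls. In that fit the synthesis median was 2.89 and the efflux median 6.55 at day 14, and 2.16 and 3.27 over both days. All genes had a median of 1.53 there at day 14. Under voom the synthesis median at day 7 was 1.91. Over left-out libraries the synthesis median ran from 0.81 to 1.41 at day 7, 0.62 to 1.53 at day 14 and 1.06 to 1.68 over both days, the efflux median from -0.70 to -0.04, -0.42 to 0.45 and -0.35 to 0.08, and the balance from 1.23 to 2.24, 0.59 to 1.74 and 1.15 to 1.77.

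Fold changes near 0 changed sign. Under voom, Npc2 at day 7 was -0.298, Srebf2 0.64 at day 7 and -0.10 at day 14. Under the replicate block, Abca1 at day 14 was 0.40, Npc2 at day 7 -0.16 and Srebf2 at day 7 0.24. Without the 4 microglia-high libraries, Abca1 was 0.0170 at day 7 and 11.40 at day 14, where the only GFP library left has Abca1 at 0 CPM. In the same fit Abcg1 was -0.0522 at day 7, and Npc2 -0.0271 at day 7 and 2.08 at day 14. Over left-out libraries, Abca1 at day 14 ran from -1.81 to 0.20, Abcg1 at day 7 from -0.0583 to 1.03, Npc2 at day 7 from -0.60 to 0.346, Npc2 at day 14 from -0.967 to 0.77, and Srebf2 at day 7 from -0.822 to 0.26. Same-numbered libraries did not deviate together (correlations from -0.0507 to 0.0441), so no sign of pairing by number was seen. With pools that scatter this widely, the check cannot show that same-numbered pools shared no animal or batch. With the replicate block, among all genes 29 were called at day 7, 1 at day 14 and 64 over both days, against 34, 6 and 98 without it. DESeq2 called 954, 743 and 1153 of all genes in these comparisons, voom 430, 55 and 460, and the test with no filter 218, 23 and 401. Over left-out libraries the ranges were 1 to 81, 0 to 6 and 26 to 133. The lowest genes were near 0 counts in some libraries: Hsd17b7 was at or under 3 counts in 8 libraries, and Mvd, Fdps, Lss, Dhcr7 and Stard4 were in 3 each. Whether depth or absent RNA lay behind this was not tested.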
